A study of Rhododendron with 15 samples.

Results

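Galactinol synthase 1 is the gene listed as MSTRG.20857 in the deposited expression table of Rhododendron 'xiaotaohong' leaves, and it was chosen by that identifier as 1 of 29985 genes. The choice was made from its measured levels in these libraries, so its levels are given here as a description, without a test. The table names the gene Rhsim12G0116400, places it on the plus strand of chromosome 12 (18674010 to 18677112) and describes it as galactinol synthase 1 after a peach (Prunus persica) protein. Coordinates are those of the table, and the sources used here do not name the genome build. Leaf polyA RNA was sequenced in 15 libraries, 3 in each of 5 groups. Melatonin, an indole compound that plants make from tryptophan, had been applied in the groups at 35 °C and 40 °C with melatonin. The other 3 groups were at 25 °C, 35 °C and 40 °C without melatonin, all 3 labelled normal, with 25 °C named as the control in the series design. All came from the same variety and tissue. The sources used here do not state the dose of melatonin, the length of heating or the age of the plants. They also do not say that the libraries of a group came from separate plants, so p-values measure only how far these samples scatter, and that scatter may be technical.

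Galactinol synthase transfers a galactose unit from UDP-galactose to myo-inositol and so makes galactinol, the first committed step towards the raffinose family of sugars. Raffinose synthase, also called galactinol--sucrose galactosyltransferase, passes that galactose from galactinol to sucrose, stachyose synthase extends the raffinose made, and alpha-galactosidases take the chain apart. In leaves these sugars are known as protective solutes under heat, cold and drought and, in some woody plants, as sugars carried in the phloem. In Arabidopsis thaliana, a galactinol synthase gene is among the known targets of heat stress transcription factors.

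Galactinol synthase 1 was among the most abundant transcripts of the leaf in every group except 40 °C without melatonin. Levels are in FPKM, the authors' fragments per kilobase of gene and per 1e6 fragments. At 40 °C with melatonin it had 6091, 6128 and 6157 FPKM, and at 35 °C with melatonin 5529, 5305 and 5422 FPKM. Without melatonin it had 5785, 5937 and 5791 FPKM at 25 °C, 6032, 6352 and 6260 FPKM at 35 °C, and 440, 434 and 449 FPKM at 40 °C. The 3 libraries at 40 °C without melatonin thus lay far below the other 12, and within each group the libraries lay close together. By rank of FPKM among all genes, it stood at 1 in all libraries at 35 °C and in both melatonin groups, at 1 or 2 at 25 °C, and at 119 to 127 at 40 °C without melatonin. It took 0.067 to 0.0692% of all counts at 40 °C without melatonin and 0.817 to 0.97% in the other groups.

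**Figure D1:**
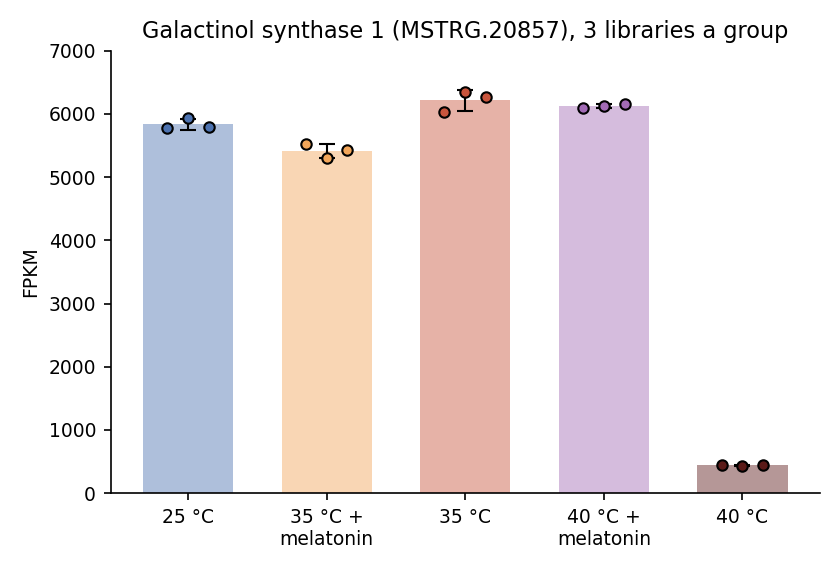
Level of galactinol synthase 1 in FPKM (vertical axis) in the 5 groups, with bars for the mean, error bars for the SD and points for the 3 libraries of each group. The group at 40 °C without melatonin averaged 441 FPKM, and the means of the other groups lay between 5419 and 6215 FPKM.

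Ordered by mean level, the groups ran from 35 °C (6215 ± 165 FPKM, SD, n = 3) through 40 °C with melatonin (6125 ± 33.1 FPKM), 25 °C (5838 ± 86.1 FPKM) and 35 °C with melatonin (5419 ± 112 FPKM) to 40 °C without melatonin (441 ± 7.44 FPKM). The libraries of the first pair in that order overlapped, and those of every other pair of groups did not. The mean at 40 °C without melatonin was 7.55% of that at 25 °C, a 13.2-fold lower level. At 40 °C the mean with melatonin was 13.9-fold that without. At 35 °C the mean with melatonin was lower than that without by 796 FPKM, with a combined SD of 199 FPKM. In leaf RNA, fewer cells of a type and less RNA per cell cannot be told apart.

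Of the small differences among the 4 high groups, those between 25 °C, 35 °C without melatonin and 40 °C with melatonin depended on the scale. The edgeR fit uses counts per 1e6 after TMM scaling, which sets libraries on a common level by the trimmed mean of gene ratios. On that scale 40 °C with melatonin averaged 9077 ± 9.47 counts per 1e6 and 25 °C 9287 ± 76.2 (SD, n = 3 each), the opposite order to that in FPKM. The libraries at 35 °C without melatonin (9476 ± 216) overlapped those at 25 °C. The group at 35 °C with melatonin, at 7685 ± 153 counts per 1e6, was the lowest of the 4 on both scales. The fitted log2 fold change was -3.64 ± 0.02 (SE) for 40 °C against 25 °C, -3.67 ± 0.02 for 40 °C against 35 °C and 0.03 ± 0.02 for 35 °C against 25 °C. With against without melatonin it was 3.60 ± 0.02 at 40 °C and -0.30 ± 0.02 at 35 °C. Each SE was derived as the size of the fold change over the square root of the F statistic of the fit, and no p-value is given. The comparisons share libraries: those at 40 °C without melatonin enter both the contrast with 25 °C and that with melatonin.

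Among the 39 genes with a mean of at least 1000 FPKM at 25 °C, a set chosen after its values were seen and given as a description, 30 were below 50% of their 25 °C level at 40 °C without melatonin. The median of the 39 was 56.5% of the 25 °C level at 40 °C with melatonin and 21.9% at 40 °C without. Galactinol synthase 1 was the 8th lowest at 40 °C without melatonin, and it was among the 9 that stood at 100% or more with melatonin, at 104.9% of its 25 °C mean.

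Inside the gene, the table lists another locus on the minus strand. MSTRG.20858 (18674104 to 18676839, 2736 bases, all within galactinol synthase 1) carries the same gene name and no description. Libraries were built by a strand-marking dUTP protocol per the labels, but the sources used here do not state the strand setting of the counting, so reads of this locus and of galactinol synthase 1 may not be separated. It had 95.2, 99.2 and 112 FPKM at 40 °C with melatonin, against 2.76, 4.36 and 3.05 FPKM at 40 °C without. At 35 °C it had 32.6, 29.6 and 69.6 FPKM with melatonin, against 23.2, 17.9 and 18.1 FPKM without, and at 25 °C it had 17.3, 41.6 and 42.8 FPKM. The melatonin groups lay above their melatonin-free groups in every library, while libraries at 25 °C and in the melatonin group at 35 °C scattered widely.

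Relative to galactinol synthase 1, the counts of this locus were 1.12 to 1.31% at 40 °C with melatonin, above the 0.202 to 0.919% of the other 12 libraries. The share also varied within groups, from 0.214 to 0.529% at 25 °C and from 0.40 to 0.919% at 35 °C with melatonin. Whether reads of the gene around it were counted here was not tested. With melatonin at 40 °C the fitted log2 fold change of this locus was 4.72. At 40 °C without melatonin it was -3.22 against 25 °C and -2.39 against 35 °C. These values are given without a test, since reads may be shared with galactinol synthase 1, which was chosen for its levels. The call of a rise with melatonin at 35 °C (adjusted p = 0.038) was lost without replicate 3 of 35 °C with melatonin, where the log2 fold change was 0.55. Without replicate 2 (1.005) or replicate 3 (0.987) of 35 °C it stayed close to that of all libraries.

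**Figure D2:**
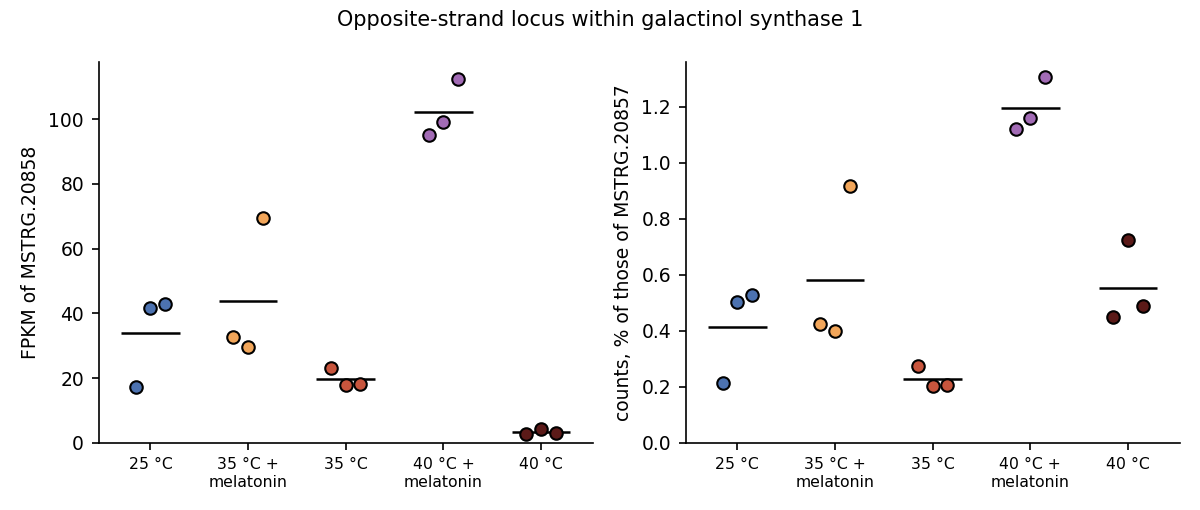
Left, FPKM of the minus-strand locus MSTRG.20858 by group; right, its counts as a percentage of those of galactinol synthase 1 in the same library. Points are the 3 libraries of a group and lines their means; at 40 °C with melatonin the mean was 102 FPKM, against 3.39 FPKM at 40 °C without.

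Of the other neighbours, the 3 on the lower-coordinate side lay 11.4 to 25.9 kb away. The nearest on that side, an AC transposase gene, held 1 count in all libraries together and was not tested, and the next, an uncharacterized gene, had counts at 40 °C without melatonin only (mean 0.287 FPKM). The furthest, the undescribed MSTRG.20856, averaged 7.28 ± 0.774 FPKM at 40 °C with melatonin and 4.19 ± 0.67 FPKM at 40 °C without (log2 fold change 0.60). It averaged 6.11 ± 0.723 FPKM at 25 °C. The call of its fall at 40 °C against 25 °C (-0.45) was lost without replicate 2 of 25 °C or replicate 1 of 40 °C. On the other side, MSTRG.20859, which has no description and starts 1.8 kb beyond the gene, averaged 8.58 ± 0.723 FPKM at 40 °C with melatonin and 4.96 ± 0.528 FPKM at 40 °C without (log2 fold change 0.60), and its level at 40 °C was below the 11.5 ± 1.83 FPKM at 25 °C (-1.12). MSTRG.20860, also undescribed and 9.1 kb away, had its highest means at 35 °C, 53.9 ± 1.3 FPKM with melatonin and 55.4 ± 1.2 FPKM without.

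The table describes 7 genes as galactinol synthase, of which 2 had more than 1 FPKM in any library. The other of these, MSTRG.19247 (Rhsim11G0098800, chromosome 11, 21429772 to 21432275), had 275, 281 and 277 FPKM at 40 °C with melatonin, against 551, 628 and 611 FPKM at 40 °C without. At 35 °C it had 311, 302 and 300 FPKM with melatonin, against 237, 201 and 199 FPKM without, and at 25 °C it had 421, 418 and 415 FPKM. No pair of groups overlapped. Its libraries at 40 °C without melatonin were the highest and those at 35 °C without melatonin the lowest, the reverse of galactinol synthase 1 in that pair.

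MSTRG.19247 fell at 35 °C against 25 °C (log2 fold change -1.04, adjusted p = 6e-09) and rose at 40 °C against 25 °C (0.60, adjusted p = 4.7e-07). With melatonin it rose at 35 °C (0.41, adjusted p = 0.0002) and fell at 40 °C (-1.30, adjusted p = 2.3e-10). Galactinol synthase 1 had 21.8 to 22.3 times its FPKM at 40 °C with melatonin, 17.6 to 18.1 times at 35 °C with melatonin, 13.8 to 14.2 times at 25 °C and 25.5 to 31.6 times at 35 °C, but only 0.691 to 0.80 times at 40 °C without melatonin. Of the summed FPKM of the 7 genes, galactinol synthase 1 held from 95.6 to 95.7% in the melatonin group of 40 °C, against 40.9 to 44.4% in the melatonin-free group. That sum was 6403 ± 34.2 FPKM at 40 °C with melatonin, 1037 ± 39.9 FPKM at 40 °C without and 6256 ± 86.2 FPKM at 25 °C (SD, n = 3 each). The remaining 5 genes stayed at or below 0.596 FPKM in every library, and 2 of them were not tested for low counts. Members of such families can be near-identical, and the sources used here do not state how reads shared between them were counted.

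The genes of raffinose metabolism around galactinol synthase 1 were taken from the table by words in their descriptions, 69 genes without galactinol synthase 1, of which 62 passed the count filter and were tested. At 40 °C against 25 °C, 51 of them passed the test, 24 higher and 27 lower, a share of 82.3% where 75.9% of all genes tested passed, 37.3% higher and 38.6% lower. With against without melatonin at 40 °C, 39 passed, 17 higher and 22 lower (62.9%), where 59.1% of all genes did, 32.9% higher and 26.2% lower. At 35 °C against 25 °C, 41 passed, 17 higher and 24 lower (66.1%), where 49.1% of all genes did, 25.5% higher and 23.6% lower. At 40 °C against 35 °C, 46 passed, 23 each way (74.2%), where 69.3% of all genes did, 32.8% higher and 36.5% lower. With against without melatonin at 35 °C, 17 passed, 9 higher and 8 lower (27.4%), where 22.0% of all genes did, 9.7% higher and 12.3% lower. The melatonin effect at 40 °C differed from that at 35 °C for 39 of the 62, 16 upward and 23 downward (62.9%), where 48.5% of all genes passed that test, 27.2% upward and 21.3% downward.

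The median log2 fold change of the list was -0.31 at 40 °C against 25 °C (-0.21 with genes at 0 in a group set at the bound that 3 counts per library allow), beside -0.01 for all genes. With melatonin at 40 °C it was -0.07 (-0.12 with those bounds), beside 0.10 for all genes, and for the difference of the melatonin effects it was -0.30, beside 0.10. It was 0.00 at 35 °C against 25 °C, 0.04 at 40 °C against 35 °C and 0.08 with melatonin at 35 °C, beside 0.01, -0.07 and 0.00 for all genes. In every comparison members moved both ways. The share that passed was close to that of all genes for 40 °C against 25 °C, for 40 °C against 35 °C and for melatonin at either temperature, and furthest above it at 35 °C against 25 °C and in the difference of the melatonin effects; these shares and medians are a description, without a test of the list.

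**Figure D3:**
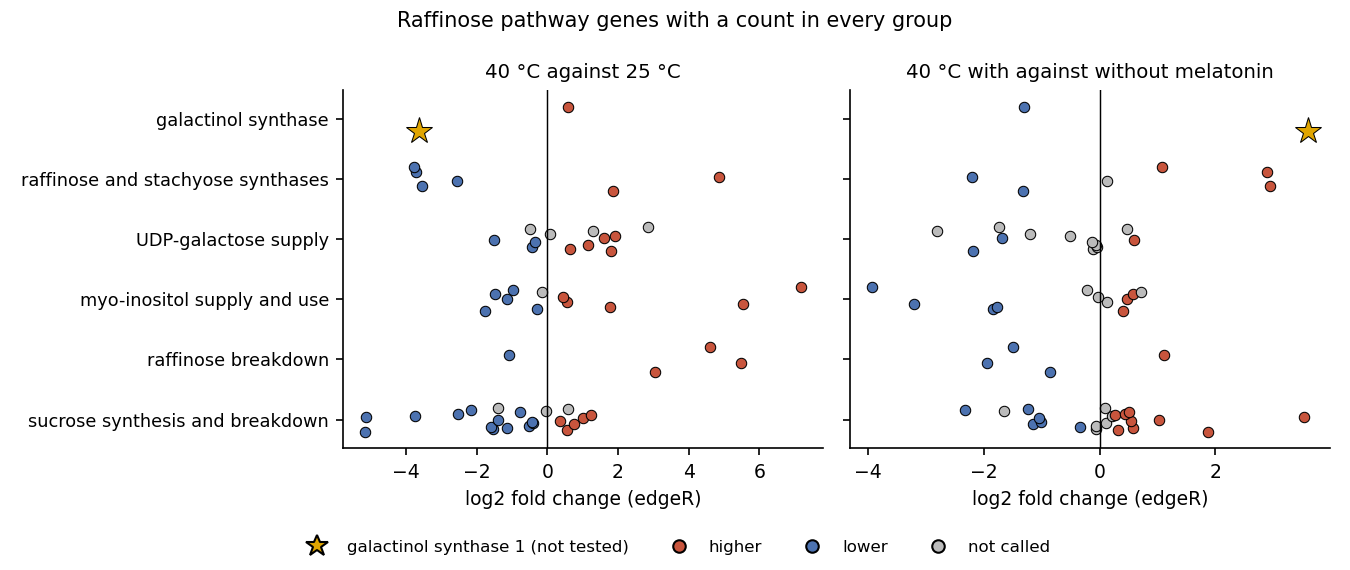
Log2 fold changes of the tested raffinose pathway genes with a count in every group, by step of the pathway (rows), for 40 °C against 25 °C (left) and for 40 °C with against without melatonin (right). Colours give the direction of genes that passed the test, and the star is galactinol synthase 1 (-3.64 and 3.60), given without a test.

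All 8 raffinose and stachyose synthase genes passed the test at 40 °C against 25 °C, 4 higher and 4 lower, where 75.9% of all genes passed. With melatonin at 40 °C, 7 passed, 3 higher and 4 lower (87.5%, where 59.1% of all genes passed). MSTRG.2955 (Rhsim02G0088400, chromosome 2, 13814267 to 13821366), a galactinol--sucrose galactosyltransferase, had 21.8, 26.9 and 22.5 FPKM at 40 °C with melatonin, against 2.19, 3.07 and 2.81 FPKM at 40 °C without. At 25 °C it had 33.3, 34.0 and 33.7 FPKM and at 35 °C 16.1, 15.7 and 16.5 FPKM. Like galactinol synthase 1 it was lowest at 40 °C without melatonin, but it was also lower at 35 °C than at 25 °C. It fell at 40 °C against 25 °C by 3.55 on the log2 scale (adjusted p = 4.3e-13) and rose with melatonin at 40 °C (2.95, adjusted p = 9.8e-12). MSTRG.21210, of the same description, averaged 4.42 ± 0.365 FPKM at 40 °C with melatonin and 0.526 ± 0.322 FPKM at 40 °C without (log2 fold change 2.89, adjusted p = 3.1e-06), and its mean at 25 °C was 7.25 ± 0.604 FPKM.

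Other raffinose synthase genes moved the opposite way. MSTRG.11702 (Rhsim06G0234200, chromosome 6, 35375849 to 35380748) had 20.8, 23.5 and 23.1 FPKM at 40 °C without melatonin and no count in any library at 40 °C with melatonin, at 35 °C without melatonin or at 25 °C. The 11334 counts at 40 °C without melatonin put it at least 1130-fold higher there than at 25 °C, and at least 1140-fold lower with melatonin than without at 40 °C, against a floor of 3 counts per library. At 35 °C with melatonin it held 28 counts in all.

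MSTRG.21231 averaged 9.37 ± 0.413 FPKM at 40 °C with melatonin and 37.7 ± 3.13 FPKM at 40 °C without (log2 fold change -2.20, adjusted p = 5.1e-10). At 25 °C its mean was 1.39 ± 0.20 FPKM, so that it rose at 40 °C (4.85, adjusted p = 1e-13). Its neighbour Rhsim12G0169700 had counts at 40 °C without melatonin only (0.512 ± 0.182 FPKM). MSTRG.7103, the most abundant of the group at 40 °C, averaged 28.2 ± 0.766 FPKM at 40 °C with melatonin and 61.9 ± 2.30 FPKM at 40 °C without (-1.32, adjusted p = 9.2e-12), while at 35 °C it averaged 63.0 ± 0.929 FPKM with melatonin and 37.9 ± 1.96 FPKM without (0.63, adjusted p = 3e-07).

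Another pattern was seen in 2 genes that were highest at 25 °C and low at both higher temperatures. MSTRG.17123, another raffinose synthase gene, averaged 40.2 ± 1.0 FPKM at 25 °C, 10.8 ± 1.29 FPKM at 35 °C and 6.39 ± 0.456 FPKM at 40 °C without melatonin. MSTRG.21616, described as stachyose synthase, averaged 8.53 ± 0.485 FPKM at 25 °C, 0.434 ± 0.041 FPKM at 35 °C and 0.583 ± 0.118 FPKM at 40 °C. With melatonin the stachyose synthase gene rose both at 40 °C (1.40 ± 0.257 FPKM with, 0.583 ± 0.118 FPKM without, log2 fold change 1.07) and at 35 °C (1.69 ± 0.17 FPKM with, 0.434 ± 0.041 FPKM without, 1.84), but stayed below its 25 °C level. Summed over the 8 genes, FPKM was 75.2 ± 2.34 at 40 °C with melatonin and 133 ± 2.56 at 40 °C without (SD, n = 3 each).

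**Figure D4:**
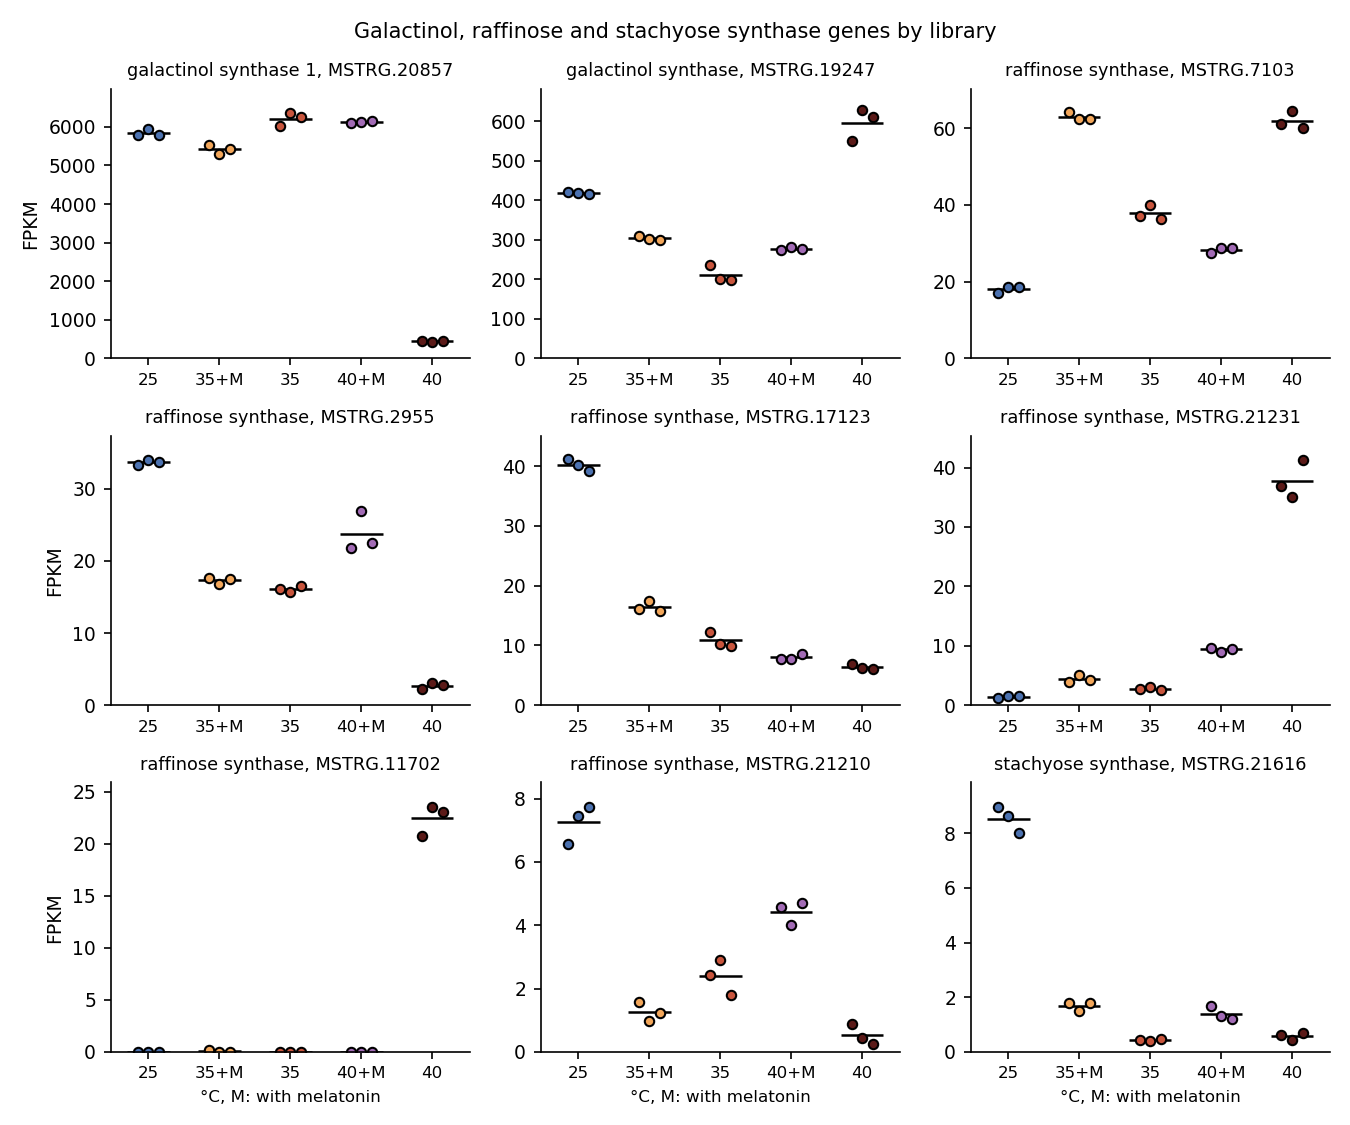
FPKM by library (points, with lines for group means) of both expressed galactinol synthase genes and 7 raffinose and stachyose synthase genes; each panel has its own vertical axis, and M marks melatonin. By group mean, galactinol synthase 1, MSTRG.2955, MSTRG.21210 and MSTRG.17123 are lowest at 40 °C without melatonin, where MSTRG.19247, MSTRG.21231 and MSTRG.11702 are highest.

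Genes of the substrates of galactinol synthase were mixed. Of 13 genes for UDP-galactose supply, 6 rose and 3 fell at 40 °C against 25 °C (69.2%, near the 75.9% of all genes). With melatonin at 40 °C, 1 rose and 3 fell (30.8%, where 59.1% of all genes passed). The 13 include genes near 0 FPKM, such as RhsimUnG0153700 and RhsimUnG0049300 (means of 0.294 and 0.181 FPKM over all libraries), where low counts limit the test. The most abundant, a UDP-glucose 4-epimerase gene (MSTRG.4074), whose product interconverts UDP-glucose and UDP-galactose, had 33.2, 33.5 and 32.0 FPKM at 40 °C with melatonin, against 130.0, 134 and 130.0 FPKM at 40 °C without. It fell with melatonin at 40 °C (log2 fold change -2.19, adjusted p = 2.1e-14) and rose at 40 °C against 25 °C (1.80, adjusted p = 3.2e-14), where it averaged 40.2 ± 1.36 FPKM. The other epimerase gene named by the rule, MSTRG.12372, averaged 12.5 ± 0.305 FPKM with and 11.3 ± 0.909 FPKM without melatonin at 40 °C and did not pass the test (adjusted p = 0.66).

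Of 11 genes for myo-inositol supply and use, 5 rose and 5 fell at 40 °C against 25 °C (90.9%, against 75.9% of all genes), and 3 rose and 4 fell with melatonin at 40 °C (63.6%, against 59.1%). Inositol-3-phosphate synthase (MSTRG.13681), which makes the precursor of myo-inositol from glucose 6-phosphate, had 55.3, 55.1 and 57.9 FPKM at 40 °C with melatonin, against 163, 185 and 185 FPKM at 40 °C without (log2 fold change -1.85, adjusted p = 3.7e-13). At 35 °C it averaged 69.8 ± 2.53 FPKM, lower than the 230.0 ± 5.56 FPKM at 25 °C (-1.79, adjusted p = 1.2e-12). An inositol transporter gene (MSTRG.22387) averaged 102 ± 2.69 FPKM with and 67.9 ± 2.04 FPKM without melatonin at 40 °C, both below its 247 ± 6.04 FPKM at 25 °C, a rise with melatonin of 0.40 on the log2 scale (adjusted p = 2.6e-07).

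All 4 alpha-galactosidase genes, whose products remove galactose from raffinose sugars and other galactosides, passed in both comparisons at 40 °C. Against 25 °C 3 were higher and 1 lower, and with melatonin 1 was higher and 3 lower. Of all genes tested, 75.9% passed at 40 °C against 25 °C and 59.1% with melatonin at 40 °C, and 4 genes are few for a share. MSTRG.15586 had 118, 121 and 120.0 FPKM at 40 °C with melatonin, against 402, 398 and 409 FPKM at 40 °C without (log2 fold change -1.94, adjusted p = 5.3e-13). At 25 °C it averaged 9.53 ± 0.929 FPKM and at 35 °C 44.2 ± 0.925 FPKM, so that it rose at each step of temperature. MSTRG.5305 averaged 181 ± 4.81 FPKM at 40 °C with melatonin and 287 ± 6.44 FPKM at 40 °C without (-0.86, adjusted p = 4e-11). The exception, MSTRG.15610, averaged 8.00 ± 0.776 FPKM with and 3.23 ± 0.604 FPKM without melatonin at 40 °C (1.12, adjusted p = 9.2e-07). Its rise at 35 °C against 25 °C (0.30, adjusted p = 0.04) was lost without any single replicate of 25 °C or of 35 °C, where the log2 fold change was 0.26 to 0.33, and without replicate 3 of 35 °C with melatonin or of 40 °C with melatonin (0.298 in both). Summed over the 4 genes, FPKM was 309 ± 5.77 at 40 °C with melatonin, 695 ± 9.24 at 40 °C without and 53.5 ± 2.25 at 25 °C.

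Of 22 tested genes of sucrose synthesis and breakdown, 5 rose and 14 fell at 40 °C against 25 °C, where 37.3% of all genes rose and 38.6% fell, and 9 rose and 6 fell with melatonin at 40 °C, where 32.9% of all genes rose and 26.2% fell. A putative invertase inhibitor gene (MSTRG.9198), of a family that restrains the cleavage of sucrose, had 21.6, 23.3 and 21.8 FPKM at 40 °C with melatonin, against 4.35, 6.54 and 4.92 FPKM at 40 °C without (log2 fold change 1.88, adjusted p = 2.6e-09), and had 205, 187 and 208 FPKM at 25 °C. Of both sucrose synthase genes named by the rule, MSTRG.2177 averaged 104 ± 1.67 FPKM with and 73.4 ± 1.97 FPKM without melatonin at 40 °C (0.31, adjusted p = 4.2e-07). MSTRG.8205 averaged 15.8 ± 0.403 FPKM with and 14.4 ± 1.60 FPKM without, and did not pass the test (-0.06, adjusted p = 0.49). Its fitted value is on TMM-scaled counts, so its sign differs from that of the FPKM difference.

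Of 24 tested genes for other protective solutes, 9 rose and 11 fell at 40 °C against 25 °C (83.3%, against 75.9% of all genes), and 8 rose and 9 fell with melatonin at 40 °C (70.8%, against 59.1%). A gene described as trehalose-phosphate synthase (MSTRG.146) is of a family named for making the precursor of the disaccharide trehalose. It had 11.3, 11.5 and 10.2 FPKM at 40 °C with melatonin, against 448, 452 and 461 FPKM at 40 °C without. Its mean was 3.48 ± 0.291 FPKM at 25 °C and 21.5 ± 1.62 FPKM at 35 °C. It rose at 40 °C against 25 °C (log2 fold change 7.12, adjusted p = 4e-17) and fell with melatonin at 40 °C (-5.56, adjusted p = 1.2e-15), opposite to the values of galactinol synthase 1. Of the other genes of this list named by the rule, MSTRG.16019, also described as trehalose-phosphate synthase, moved the same way (1.69 and -1.09). The sorbitol dehydrogenase gene MSTRG.16839 fell at 40 °C against 25 °C (-1.39) and did not pass with melatonin at 40 °C (0.04, adjusted p = 0.52). Among 18 tested relatives in glycosyltransferase family 8, to which galactinol synthases belong, 6 rose and 11 fell at 40 °C against 25 °C (94.4%, against 75.9% of all genes), and 8 rose and 6 fell with melatonin at 40 °C (77.8%, against 59.1%). The galacturonosyltransferase gene MSTRG.6928, whose product is of a family that builds pectin, averaged 3.97 ± 0.313 FPKM with and 1.31 ± 0.173 FPKM without melatonin at 40 °C (1.40, adjusted p = 2.1e-09), against 35.2 ± 1.60 FPKM at 25 °C.

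Of 21 tested genes matched as heat stress transcription factors, 10 rose and 8 fell at 40 °C against 25 °C (85.7%, against 75.9% of all genes), and 8 rose and 8 fell with melatonin at 40 °C (76.2%, against 59.1%). These counts include 2 genes for heat shock factor-binding proteins, which are not such factors (MSTRG.2293, lower at 40 °C against 25 °C and higher with melatonin at 40 °C, and MSTRG.7991, the reverse in both; MSTRG.7991 lies outside the rule for named genes and was chosen after its values were seen). Heat shock factor B3 (MSTRG.4397) had 35.9, 40.5 and 37.2 FPKM at 40 °C with melatonin, against 121, 119 and 122 FPKM at 40 °C without (log2 fold change -1.86, adjusted p = 2.7e-11). At 35 °C it was higher with melatonin, at 58.2 ± 3.79 FPKM, than without, at 17.2 ± 1.19 FPKM (1.66, adjusted p = 2.6e-09). DREB factors bind dehydration-responsive elements. Of 12 tested genes for them, 8 rose and 2 fell at 40 °C against 25 °C (83.3%, against 75.9% of all genes). With melatonin at 40 °C, 1 rose and 6 fell (58.3%, against 59.1%). The totals were near those of all genes, but the directions were less even. Of all genes, 37.3% rose and 38.6% fell at 40 °C against 25 °C, and 32.9% rose and 26.2% fell with melatonin at 40 °C. The median log2 fold changes of the 12 were 1.28 and -0.93 (-1.17 with the bounds for genes at 0), without a test of the list. MSTRG.16730 averaged 37.8 ± 0.653 FPKM at 40 °C with melatonin, 86.9 ± 4.24 FPKM at 40 °C without and 1.46 ± 0.202 FPKM at 25 °C.

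Marker genes of other leaf cell types moved between the groups as well. The summed FPKM of 19 phloem marker genes lay between 91.7 and 95.7 in the melatonin group of 40 °C, against 104 to 113 in the melatonin-free group of 40 °C. It was 156 to 157 at 35 °C with melatonin, 294 to 304 at 25 °C and 461 to 467 at 35 °C without melatonin. Of 16 tested, 6 rose and 9 fell at 40 °C against 25 °C (93.8%, against 75.9% of all genes), and 7 rose and 5 fell with melatonin at 40 °C (75.0%, against 59.1%), and none of the 19 was at 0 in all libraries. Most of the sum at 25 °C came from a sieve element occlusion gene (MSTRG.14865, chosen after its values were seen), with a mean of 16.2 FPKM at 40 °C with melatonin, 0.551 FPKM at 40 °C without and 203 FPKM at 25 °C. The sum was low in both groups at 40 °C and lower with melatonin than without. MSTRG.14865 was higher with melatonin than without at that temperature, but far below its 25 °C level in both groups. Any part of phloem content in the level of galactinol synthase 1 was not tested. The summed FPKM of 33 xylem marker genes lay between 43.0 and 44.3 in the melatonin group of 40 °C, against 41.8 to 46.8 in the melatonin-free group, and between 61.4 and 65.6 at 25 °C. The single guard cell marker matched was at or near 0 in every group (at most 0.444 FPKM in any library) and was not tested, so it gives no comparison. Mitochondrial genes took 0.0566 to 0.069% of counts at 40 °C with melatonin, 0.202 to 0.222% at 40 °C without and at most 0.0266% in the other groups, and the part of this shift in the result was not tested.

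Genes with a pattern most like that of galactinol synthase 1 were ranked by Pearson's r of log2(CPM + 1) over the 15 libraries, among 11105 genes with an informative description and at least 5 FPKM in their highest group. All points share the libraries, their depth and the low group at 40 °C, so r is a description. An r of at least 0.99 was reached by 6 genes, of at least 0.95 by 184, and of -0.95 or lower by 244.

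The 8 most alike were 3 genes for chlorophyll a-b binding proteins, which hold the pigments of the photosynthetic antenna (MSTRG.16494, r = 0.994; MSTRG.21116, r = 0.993; MSTRG.20722, r = 0.992), a dioxygenase of the methionine salvage cycle (MSTRG.7797, r = 0.993), a divinyl chlorophyllide reductase of chlorophyll synthesis (MSTRG.7943, r = 0.988), a pair of disease resistance proteins (MSTRG.6761, MSTRG.4490) and a copper-transporting ATPase (MSTRG.3955). MSTRG.16494 averaged 1542 ± 22.1 FPKM at 40 °C with melatonin, 152 ± 10.9 FPKM at 40 °C without and 1405 ± 48.3 FPKM at 25 °C. MSTRG.7797 averaged 603 ± 4.09 FPKM at 40 °C with melatonin, 32.3 ± 3.91 FPKM at 40 °C without and 420.0 ± 7.35 FPKM at 25 °C. Without the 3 libraries at 40 °C without melatonin, r over the remaining 12 was -0.14 to 0.87 for the 8, and none of them was among the 8 most alike.

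Least alike was the raffinose synthase gene MSTRG.11702 described above, with r = -0.998. It was followed by a Dof zinc finger gene (MSTRG.22887), an EXORDIUM-like gene (MSTRG.5861) and alcohol dehydrogenase 9 (MSTRG.5466), each close to 0 FPKM outside the group at 40 °C without melatonin. In that group the Dof gene averaged 22.7 ± 1.28 FPKM, the EXORDIUM-like gene 17.9 ± 0.735 FPKM and the dehydrogenase gene 9.05 ± 0.359 FPKM.

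**Figure D5:**
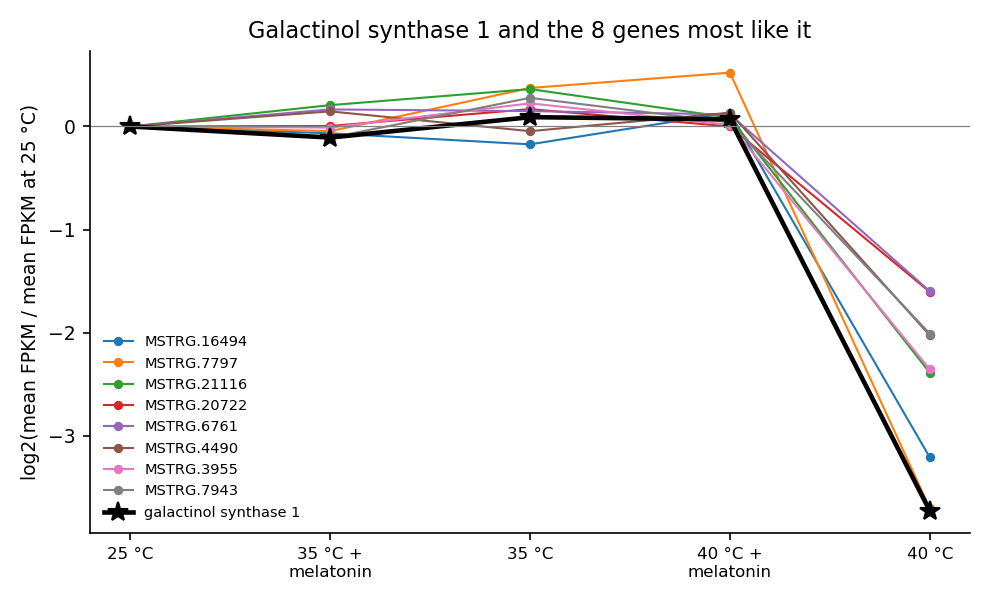
Mean FPKM of galactinol synthase 1 (black, stars) and the 8 genes most like it, as the log2 ratio to the mean at 25 °C (vertical axis), in the 5 groups; lines join the groups only to guide the eye. All 9 are lowest at 40 °C without melatonin.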

How the data were processed

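Leaf RNA of 15 libraries in 5 groups was analysed. The submitters' processing notes name StringTie 1.3.4d, HISAT2 2.0.4 and cutadapt 1.9, without their roles. The authors deposited unnormalized counts per gene, with totals of 54300447 to 68267949 per library, and 58.8 to 63.0% of counts from 1 to 20 were even, so a fragment may count more than 1 time. The authors' deposited FPKM followed the counts by 1 factor per library and 1 per gene, within 1% for all 7006 genes checked. Per the file headers, columns begin with CK or MT, read from the series design as without and with melatonin; 6 value columns that match no sample were not used.

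Counts were fitted with edgeR 4.0.16 (R 4.3.3), by its quasi-likelihood test with TMM scaling, filterByExpr and 5 group means, on 26183 genes; p-values were two-sided and adjusted by Benjamini-Hochberg, and genes passed at 0.05. Scripts were tested on simulated data. The gene, the lists and the rule for named genes were chosen with earlier results of these data known. The rule takes every galactinol, raffinose and stachyose synthase gene, the 3 most abundant genes of each other list except the cell type markers, the 8 genes most and 4 least like galactinol synthase 1, and 3 neighbours on either side; the minus-strand locus is among these. Alternatives were DESeq2 1.42.0, limma 3.58.1 on log2(FPKM + 1) and log2(FPKM + 0.1), RLE scaling, all genes without a filter, separate fits of the groups compared, a block for the replicate number, and leaving out each library. Same-numbered libraries did not deviate together (r -0.06 to 0.03 over 30 pairs), so the numbers were not taken to pair them.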

Additional observations from a re-analysis of the deposited data

Results flagged for a closer look

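Each result here differed between the temperatures in its response to melatonin, as the log2 fold change with against without melatonin at 40 °C minus that at 35 °C. For galactinol synthase 1 the difference was 3.91 and was not tested, since the gene was chosen for its levels: every library at 40 °C with melatonin lay above every library without, and at 35 °C every library with melatonin lay below. For the others the difference itself passed edgeR's quasi-likelihood test with Benjamini-Hochberg adjustment, where 48.5% of all genes tested did.

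Positive differences were found for the raffinose synthase genes MSTRG.21210 (3.91, adjusted p = 5.5e-06) and MSTRG.2955 (2.95, adjusted p = 5e-10), the invertase inhibitor MSTRG.9198 (1.38), the alpha-galactosidase MSTRG.15610 (0.91), the sucrose synthase MSTRG.2177 (0.43), the UDP-glucose pyrophosphorylase MSTRG.16721 (0.41) and the inositol transporter MSTRG.22387 (0.28).

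Negative differences were found for the other expressed galactinol synthase MSTRG.19247 (-1.71, adjusted p = 1e-09), the raffinose synthase genes MSTRG.21231 (-2.74), MSTRG.7103 (-1.95) and MSTRG.17123 (-0.36, adjusted p = 0.02), and the stachyose synthase MSTRG.21616 (-0.77, adjusted p = 0.016). The call of MSTRG.17123 was lost without replicate 3 of 35 °C (-0.30) or replicate 2 of 35 °C with melatonin (-0.32). The UDP-glucose 4-epimerase MSTRG.4074 (-2.10), the alpha-galactosidases MSTRG.15586 (-1.92) and MSTRG.5305 (-1.19), the sugar/inositol transporter MSTRG.10619 (-1.56) and the inositol-3-phosphate synthase MSTRG.13681 (-1.54) were also negative. For MSTRG.11702 (-4.62) and the low galactinol synthase Rhsim01G0129900 (-0.40, on 22 counts at 40 °C without melatonin against 0 with) a group held no count, and the differences are given on the log2(FPKM + 1) scale.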

How the results depend on the processing

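The counts of raffinose pathway genes that passed the test stayed within 1.5 times those reported in every alternative run. With each library left out in turn they were 37 to 41 (35 °C against 25 °C), 50 to 52 (40 °C against 25 °C), 43 to 48 (40 °C against 35 °C), 13 to 19 and 37 to 42 (melatonin at 35 °C and at 40 °C) and 35 to 40 (difference of the melatonin effects). With a replicate block they were 39, 51, 47, 15, 39 and 37 in the same order; 3 of 15 libraries correlated best with their own number. The log2 fold changes of galactinol synthase 1, in that order, ranged over 0.02 to 0.05, -3.64 to -3.61, -3.67 to -3.64, -0.32 to -0.26, 3.57 to 3.61 and 3.84 to 3.92 with a library left out. Under RLE scaling and DESeq2 they were -0.008 and -0.009 (35 °C against 25 °C) and, alike in both, -3.61, -3.60, 3.53 (melatonin at 40 °C) and 3.82 (the difference); without a count filter melatonin at 40 °C gave 3.58, and on the compared groups alone 3.54, with 3.86 for the difference. On log2(FPKM + 1) limma gave 0.09, -3.72, -3.81, -0.20, 3.79 and 3.99, and on log2(FPKM + 0.1) 0.09, -3.73, -3.82, -0.20, 3.796 and 3.99. The FPKM scale moved the median of all genes for melatonin at 40 °C to 0.16 and 0.27 with those pseudocounts. Over 312 values of 55 named genes, 6676 of 6841 refits kept direction and call, 118 lost and 46 gained a call, and 1 reversed: the difference for Rhsim04G0243600, a galactinol synthase gene near 0 FPKM, was 1.42 in edgeR and -0.39 on log2(FPKM + 1); the cause was not tested. Genes near 0 FPKM are limited by depth, and 3 libraries a group limit every error given.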
